A study of Mus musculus with 6 samples.

Results

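Neuropeptides and granins of the retina were followed in rd1/rd1 mice between 2 and 8 months of age, in 10 genes: Vip, Tac1, Npy, Penk, Cartpt, Sst, Cck and Pnoc, which code for peptide precursors, and Vgf and Scg2, which belong to the granins. They were selected on an earlier reading of this same comparison, the 2 and 8 month values of the table used here, and for their role. Each gene is read through all probes whose annotation names it alone. That gave 15 probes of 45281, covering 10 of the 19057 genes that the array's named probes reach. RNA came from punches of the central retina, 1.5 mm across, of untreated mice, with 3 to 6 punches to a sample and 3 samples at each age, and was read on single-colour Illumina bead arrays. All 6 samples share the rd1/rd1 genotype, a defect of Pde6b, which codes for the beta subunit of rod phosphodiesterase, so that rods and then cones are lost. No wild-type retina was analysed here, so that late degeneration and plain ageing cannot be told apart. How many animals each sample held is not stated in the labels.

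Neuropeptides are cut from larger precursors that enter the regulated secretory pathway. Prohormone convertases cleave the precursor at pairs of basic residues, carboxypeptidase E trims the ends, an amidating enzyme finishes many of the peptides, and the product is stored in dense core vesicles and released when a neuron fires. Granins are acidic proteins of the same vesicles that help to form them and are themselves cut into peptides. In the retina most neuropeptides are made by sparse classes of amacrine cells, interneurons that inhibit their partners through GABA or glycine and add a peptide to it. The peptides act on receptors coupled to G proteins.

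Values are on the log2 scale of the deposited table, where 1 unit is a doubling. The median of an array was 7.19, and close to that level, the background of the array, steps look smaller than they are. Changes are 8 minus 2 months, with the moderated standard error of limma, a linear model fitted over 12046 genes, each read at its brightest probe above the filter on dim probes. A gene is called when its adjusted p, by the Benjamini-Hochberg method over all those genes, is below 0.05. The 10 genes were picked with this comparison already known, so that the tests describe these samples and are not independent evidence. P-values measure only the spread between these pooled samples. The samples were not alike in other tissue. The mean level of 3 haemoglobin genes was 10.7 to 12.1 at 2 months and 9.53 to 9.61 at 8 months, that of 5 muscle markers was 8.81 in 2 month replicate 2 against 7.30 to 7.99 in the other samples, and that of 10 pigment epithelium markers was 9.44 to 10.0 and 8.84 to 9.44 at the 2 ages. The brighter probe of the Y-linked gene Eif2s3y was at 7.79 and 8.27 in 2 month replicates 1 and 2 and at 7.10 to 7.18 in the other 4 samples. The brightest probe of Xist, expressed in females, was at 9.40, 8.73 and 11.1 at 2 months and at 10.8, 10.5 and 11.1 at 8 months. The sex of the animals thus differed among the 2 month samples and between the ages, and is partly mixed with age in this comparison.

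Vgf, Tac1 and Vip rose between 2 and 8 months, by 2.12-fold, 2.00-fold and 1.77-fold, and none of the 9 tested genes was called lower. Sst, Scg2 and Cartpt were higher in every sample at 8 months without being called. Npy, Penk and Cck had values that overlapped between the ages, and Pnoc was not measurable. Of the 9 members that passed the filter, 3 were called higher, beside 0.158% of all genes tested, and 0 were called lower, beside 0.0664%. Without overlap between the ages, 6 of the 9 were higher, beside 7.45% of all genes, and 0 lower, beside 7.59%. Their median change was 0.24, beside 0.000482 over all genes tested. These counts are printed beside their background and nothing is read from them, because the members were chosen with the changes in view.

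Vgf codes for a granin that neurons make in response to activity and growth factors and that is cut into several secreted peptides. Its level was 8.37, 8.47 and 8.45 in the 2 month samples and 9.59, 9.54 and 9.43 in the 8 month samples. All 3 older samples lay about 1 unit above all 3 younger ones, with little spread within an age. The change was 1.09 (SE 0.0589, n = 3 per age), a 2.12-fold rise, with a 95% interval of 0.95 to 1.22 and a limma adjusted p of 0.00129, and by p Vgf ranked 2 among the 12046 genes. Leaving out any 1 sample kept it called, with changes from 1.05 to 1.13 and adjusted p from 0.00338 to 0.0159.

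Tac1 codes for the precursor of substance P and neurokinin A, tachykinins found in amacrine cells. Its level was 9.20, 9.15 and 9.05 at 2 months and 10.4, 9.88 and 10.1 at 8 months. The ages were well apart, but the older samples were spread more widely, with replicate 1 highest and replicate 2 lowest. The change was 1.00 (SE 0.130, n = 3 per age), a 2.00-fold rise, with a 95% interval of 0.70 to 1.31. Its limma adjusted p of 0.0490 lay just inside the threshold. Without 8 month replicate 2 the call stayed (change 1.13, adjusted p = 0.0377), while leaving out any other sample ended it, with changes from 0.86 to 1.04 and limma adjusted p from 0.0783 to 0.178.

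Vip codes for vasoactive intestinal peptide, which marks a class of retinal amacrine cells. Its level was 9.33, 9.39 and 9.37 at 2 months and 10.2, 10.1 and 10.3 at 8 months. The younger samples were nearly level and the older ones all higher. The change was 0.83 (SE 0.0675, n = 3 per age), a 1.77-fold rise, with a 95% interval of 0.67 to 0.98 and a limma adjusted p of 0.00936. The call ended without 2 month replicate 1 (change 0.81, adjusted p = 0.0828) or 8 month replicate 1 (change 0.83, adjusted p = 0.0765).

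Sst codes for somatostatin, made in the retina by a small number of amacrine-type cells. It was at 7.66, 7.50 and 7.51 at 2 months and at 8.07, 8.02 and 7.94 at 8 months. The ages did not overlap, at levels little above the array median. The change of 0.45 (SE 0.0625, n = 3 per age, 95% interval 0.30 to 0.60) had a limma adjusted p of 0.0555, just outside the threshold as Tac1 was just inside it. With a stricter filter, above the 75th percentile, it was called (limma adjusted p = 0.0224). That percentile was 7.76 as the median over arrays. Sst passed it through its 8 month samples alone, so the call after that filter is no support for the rise. Sst was also called with a robust prior that follows a trend in mean level, named the robust prior below (limma adjusted p = 0.00233).

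The granin Scg2, the precursor of secretoneurin, was at 12.47, 12.36 and 12.43 at 2 months and at 12.76, 12.55 and 12.66 at 8 months. The older samples were all higher, and the change was 0.24 (SE 0.0660, 95% interval 0.08 to 0.39, n = 3 per age, limma adjusted p = 0.268). Cartpt, the precursor of the CART peptides and a marker of some direction-selective ganglion cells, was at 12.17, 12.18 and 12.16 at 2 months and at 12.29, 12.39 and 12.33 at 8 months. Its change was 0.17 (SE 0.0475, 95% interval 0.06 to 0.28, n = 3 per age, limma adjusted p = 0.264). The other probe of Cartpt also separated the ages, at 11.64, 11.53 and 11.53 against 11.72, 11.82 and 11.76. Cartpt is thus the only member with 2 probes above the filter, and their changes were alike, at 0.17 and 0.20.

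Npy codes for neuropeptide Y, an amacrine peptide in the retina. It was at 9.94, 9.76 and 9.86 at 2 months and at 10.08, 9.90 and 10.05 at 8 months. The lowest older sample lay among the younger ones, and the change was 0.16 (SE 0.0708, 95% interval −0.0073 to 0.32, limma adjusted p = 0.504). Penk, the precursor of the enkephalins, was at 7.41, 7.58 and 7.50 at 2 months and at 7.63, 7.42 and 7.63 at 8 months, all close to background. Its change was 0.06 (SE 0.0763, 95% interval −0.11 to 0.24, limma adjusted p = 0.861). For Cck, the precursor of cholecystokinin, the values were 9.18, 8.90 and 9.09 at 2 months and 8.82, 9.01 and 8.91 at 8 months. Among the tested members it had the sole negative change, −0.14 (SE 0.0849, 95% interval −0.34 to 0.06, limma adjusted p = 0.674). The upper bounds of these 3 intervals, at most 0.32, lie below the lower bounds of Vip, Tac1 and Vgf, at least 0.67. The differences between genes were not tested. The genes were picked with these changes in view, so nothing is read from that gap.

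**Figure D1:**
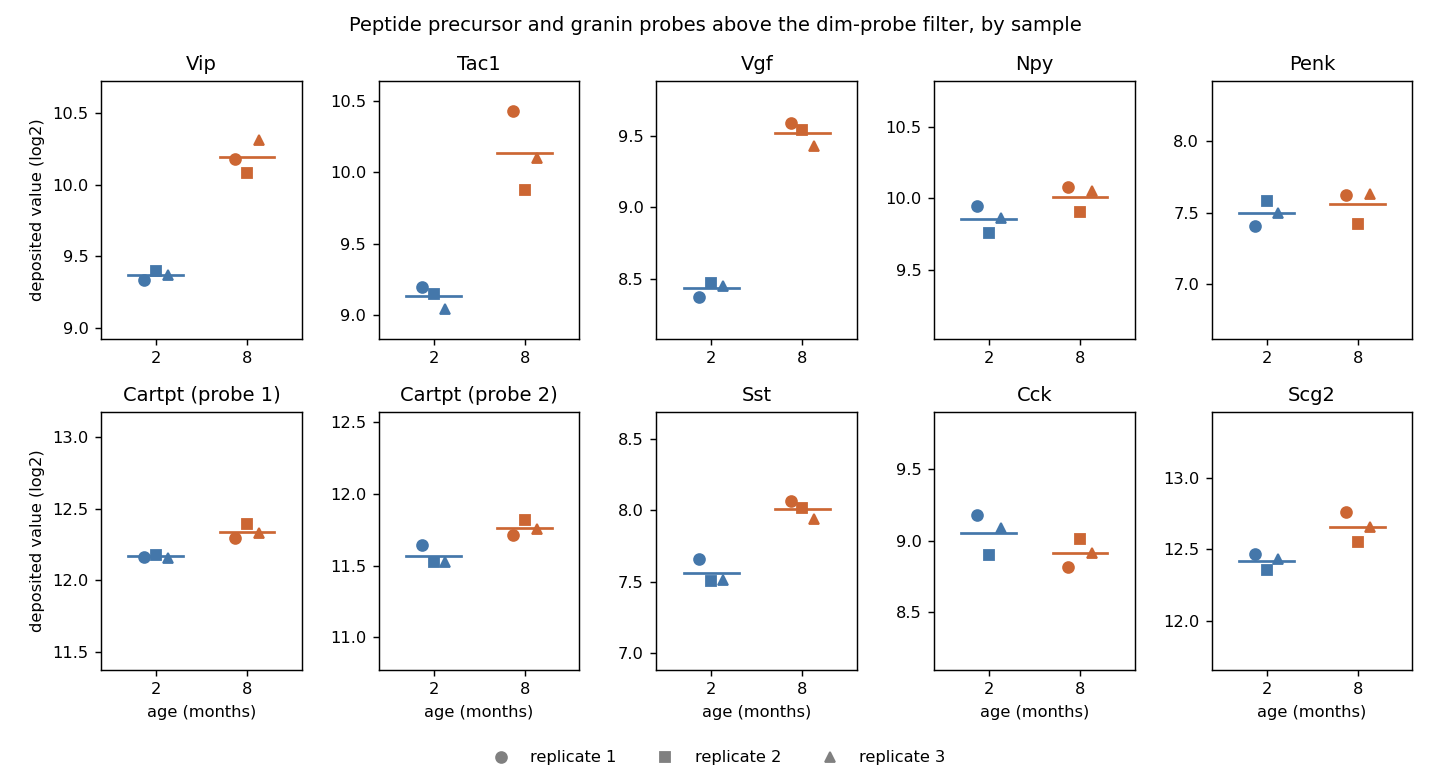
Deposited log2 value of each of the 10 member probes above the filter, by age in months, with 1 point per sample, a symbol for each replicate number and a bar at the mean of the age. Each panel spans the same number of log2 units, so that steps can be compared between panels but levels cannot; Vip, Tac1 and Vgf show no overlap and the widest steps, while Npy, Penk and Cck overlap.

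In all, 5 probes stayed below the filter. Pnoc, the precursor of nociceptin, has a single probe, at 7.17, 7.16 and 7.18 at 2 months and at 7.09, 7.15 and 7.20 at 8 months, below or at the array median, so that nothing can be said of its change. Vip, Tac1, Vgf and Scg2 each have a dim probe besides the bright one. These 4 dim probes lay between 7.08 and 7.21 in all samples, and their changes ran from −0.02 to 0.04. At the level of background they can show no change in either direction. Each rise of Vip, Tac1 and Vgf thus rests on 1 probe. When every probe on the array was tested without a filter, the probes of Vip and Vgf were called (limma adjusted p = 0.0396 and 0.00927) and that of Tac1 was not (limma adjusted p = 0.128), while 0.0133% of all probes were called higher and 0.011% lower. Without overlap between the ages, 7 member probes were higher and 0 lower, beside 5.92% and 5.72% of all probes.

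The promoters of members that moved and of members that did not are shown because many neuropeptide genes carry a cAMP response element, the site bound by the transcription factor CREB after neuronal activity. RefSeq promoter windows (build GRCm38.p6, 250 bases before to 50 after the annotated start) matched 7 of the 10 members. Vgf, Penk and Pnoc had no entry. The 150 bases before the start are printed 5′ to 3′ on the strand of the gene. Capitals mark TGACGTCA, the full element, and its form TGACGTCN with any last base, and otherwise the half-site TGACG or its reverse complement.
Vip, chr10:5639068-5639217, plus strand: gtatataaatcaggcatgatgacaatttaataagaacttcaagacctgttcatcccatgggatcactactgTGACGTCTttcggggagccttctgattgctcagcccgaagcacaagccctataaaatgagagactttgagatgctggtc
Tac1, chr6:7554911-7555060, plus strand: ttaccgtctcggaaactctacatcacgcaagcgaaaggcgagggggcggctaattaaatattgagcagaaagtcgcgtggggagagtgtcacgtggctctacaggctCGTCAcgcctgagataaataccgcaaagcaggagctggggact
Sst, chr16:23890845-23890994, minus strand: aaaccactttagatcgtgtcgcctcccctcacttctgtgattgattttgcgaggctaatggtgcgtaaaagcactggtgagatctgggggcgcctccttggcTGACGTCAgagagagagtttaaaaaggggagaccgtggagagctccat
Scg2, chr1:79440027-79440176, minus strand: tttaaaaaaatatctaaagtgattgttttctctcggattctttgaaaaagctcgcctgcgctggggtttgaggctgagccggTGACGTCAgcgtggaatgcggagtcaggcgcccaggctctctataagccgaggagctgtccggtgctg
Cartpt, chr13:99900684-99900833, minus strand: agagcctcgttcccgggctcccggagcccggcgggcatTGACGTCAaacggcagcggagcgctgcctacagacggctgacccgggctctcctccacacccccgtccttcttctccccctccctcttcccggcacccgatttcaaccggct
Npy, chr6:49822560-49822709, plus strand: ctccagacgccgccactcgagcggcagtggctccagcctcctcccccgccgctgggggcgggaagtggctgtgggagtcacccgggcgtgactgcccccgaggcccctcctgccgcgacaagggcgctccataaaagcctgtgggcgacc
Cck, chr9:121495695-121495844, minus strand: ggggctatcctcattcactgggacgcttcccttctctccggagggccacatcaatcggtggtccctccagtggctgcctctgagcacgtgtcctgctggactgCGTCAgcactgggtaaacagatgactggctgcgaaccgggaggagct

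The full element TGACGTCA, which reads the same on both strands, was found in the windows of Sst, Scg2 and Cartpt, 3 of 7, where 1.79% of all 32851 windows of that length and 2.87% of the 12494 windows of tested genes hold it. Counted from the annotated start, its first base is at −48 in Sst, −68 in Scg2 and −112 in Cartpt. In Vip the form TGACGTCN begins at −79, and with Sst, Scg2 and Cartpt that made 4 of 7 windows. The form is in 3.2% of all windows and 4.97% of those of tested genes. Tac1 held half-sites alone, on the other strand, from −43 and −197, and Cck 1 half-site from −47. Npy held none. The half-site, which lies within the full element, occurs in 20.8% of all windows and 29.2% of those of tested genes. Searched on both strands, TGANTCA, bound by AP-1, was in 0 of 7 windows (7.81% of all, 5.29% of those of tested genes). GCGNGGGCG, bound by Egr proteins, was in 0 of 7 (5.55% of all, 10.3% of those of tested genes). The TATAAA box was in 1 of 7, that of Vip (13.6% of all, 7.88% of those of tested genes). Of the 4 members with a full or TGACGTCN match, Vip was called higher at 8 months, and Sst, Scg2 and Cartpt were not called. Tac1, with half-sites alone, was called. The members were picked on their changes, so that nothing is read from matches set beside changes. A match is a run of letters and was not tested for binding.

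**Figure D2:**
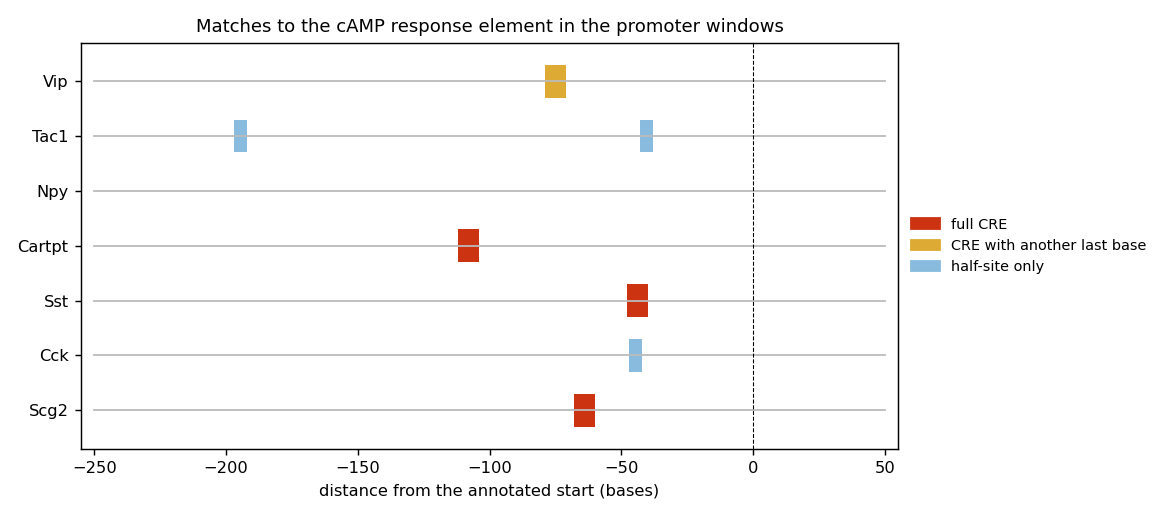
Promoter windows of the 7 members with a sequence, drawn by distance in bases from the annotated start (dashed line), from 250 before to 50 after. Red boxes are full TGACGTCA elements (Cartpt, Sst, Scg2), the yellow box is the TGACGTCN form in Vip, blue boxes are half-sites (Tac1, Cck), and Npy has none.

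Other peptide precursors were given by a list of 42 genes, of which 37 were on the array and 17 passed the filter. Of these 1 rose and 0 fell, 11 changes were positive and 6 negative, and the median was 0.02. The one that rose was Tac2, which codes for neurokinin B, the tachykinin next to those of Tac1. It was at 7.97, 7.99 and 7.83 at 2 months and at 8.52, 8.35 and 8.47 at 8 months. All older samples were higher, by 0.51 on average (SE 0.0674, limma adjusted p = 0.0490), and its dimmer probe went the same way, by 0.24. The call was lost without any 1 of the samples, at changes from 0.47 to 0.56 and limma adjusted p from 0.0731 to 0.200.

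Pdyn, the precursor of dynorphins, was at 9.32, 9.30 and 9.81 at 2 months and at 10.1, 10.3 and 10.3 at 8 months. Its older samples were all higher, but 2 month replicate 3 stood well above the other younger samples, and the change of 0.75 (SE 0.137) was not called (limma adjusted p = 0.121). Without that sample it was, at 0.92 (limma adjusted p = 0.0269), and with it as the sole 2 month sample the change was 0.42. Pdyn was also called with the filter at the 75th percentile and with the robust prior (limma adjusted p = 0.0157 and 0.00688). Its dimmer probe had a change of 0.29. Adcyap1, which codes for PACAP, a relative of VIP, was at 7.50, 7.49 and 7.63 at 2 months and at 7.98, 7.70 and 7.93 at 8 months, with a change of 0.33 (SE 0.0841, limma adjusted p = 0.234), called with the robust prior alone (limma adjusted p = 0.0458). The remaining 14 tested precursors had changes between −0.10 and 0.14, and 20 on the array stayed below the filter, none above 7.27 in any sample.

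Among 5 other granins and relatives, all tested, 0 rose or fell. The median change was 0.01 at the brightest probes, 0.15 with the mean of the kept probes or with the most variable probe, and 0.29 with the haemoglobin level as a covariate. Chgb, chromogranin B, came closest, at 11.79, 11.79 and 11.75 at 2 months and 12.07, 12.06 and 12.00 at 8 months. The ages were apart with a change of 0.26 (SE 0.0464, limma adjusted p = 0.108). Pcsk1n, an inhibitor of prohormone convertase 1, had a change of 0.15 (SE 0.0933) and Scg3, a granin that binds cholesterol-rich membrane, one of −0.01 (SE 0.0528). Chga and Scg5, the latter a helper of prohormone convertase 2, had changes of 0.01 and 0.0035. The probes of Chga differed, and its other 2 above the filter had changes of 0.22, with no overlap between the ages, and 0.21, with overlap. Among the 7 granins and relatives measured, with Scg2 and Vgf, Vgf alone was called, beside 0.158% of all genes tested called higher. Vgf was picked with its change in view, so nothing is read from that count.

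Genes that process precursors numbered 9 tested of 11 on the array, from a list of 13, and had a median change of −0.0064. None rose and 1 fell, Pcsk6, a convertase of the secretory pathway that acts on growth factors rather than neuropeptides. It was at 9.36, 9.36 and 9.43 at 2 months and at 9.03, 8.96 and 8.90 at 8 months, a change of −0.42 (SE 0.0535, limma adjusted p = 0.0490), which was not called without any 1 of the samples (adjusted p from 0.0767 to 0.175). Pcsk5, a convertase of the same group, stood at −0.18 (SE 0.0545), with 0.04 at a dimmer probe that passed the filter, and Pcsk4, a convertase known from germ cells, one of 0.07 (SE 0.0598). Carboxypeptidase E, Cpe, was at 13.2, 13.3 and 13.2 at 2 months and 13.4, 13.1 and 13.2 at 8 months, a change of 0.04 with a 95% interval of −0.14 to 0.22, and the amidating enzyme Pam had a change of −0.06. Cpe and Pam were chosen after their values were seen, for their place in the pathway. Both probes of Pcsk1, prohormone convertase 1, stayed below the filter, and Pcsk2 was not named on the array.

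All 14 listed genes of dense core vesicles were tested. None rose or fell, 9 changes were positive and 5 negative, and the median was 0.09. Resp18, a protein of endocrine secretory granules, was at 9.55, 9.33 and 9.63 at 2 months and at 9.96, 9.91 and 10.1 at 8 months, a change of 0.49 (SE 0.0907, limma adjusted p = 0.124). It was called with the filter at the 75th percentile and with the robust prior (limma adjusted p = 0.0357 and 0.0245), and its change was 0.18 with the haemoglobin level as a covariate. Rab3a, a small GTPase of synaptic and dense core vesicles, had a change of 0.26 (SE 0.101) and Ica1l, related to a vesicle autoantigen, one of 0.20 (SE 0.0751).

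Receptors for neuropeptides were mostly dim: of 32 listed, 30 were on the array and 15 passed the filter, with a median change of 0.05 and 0 called in either direction. Cckbr, the brain receptor of cholecystokinin, was at 8.15, 8.20 and 7.89 at 2 months and at 7.74, 7.55 and 7.43 at 8 months. Its older samples were all lower, with a change of −0.51 (SE 0.106, limma adjusted p = 0.153, and 0.0151 with the robust prior), beside the −0.14 of its ligand's precursor Cck. Sstr2, a somatostatin receptor, had a change of 0.26 (SE 0.0678, limma adjusted p = 0.235) beside the 0.45 of Sst. Tacr3, the receptor of neurokinin B, had a change of 0.16 (SE 0.0568), with 0.05 at a dimmer probe. The VIP receptor Vipr1 stayed below the filter, at no more than 7.19. Of 12 peptidases that degrade such peptides 9 were tested, with a median change of 0.05 and 0 called. Ece1, endothelin converting enzyme, had a change of 0.23 (SE 0.0562) with no overlap between ages, and Ece2 and Ace had changes of 0.10 each (SE 0.0548 and 0.0609), while the other probes of Ece2 above the filter went the other way, at −0.04 and −0.07.

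**Figure D3:**
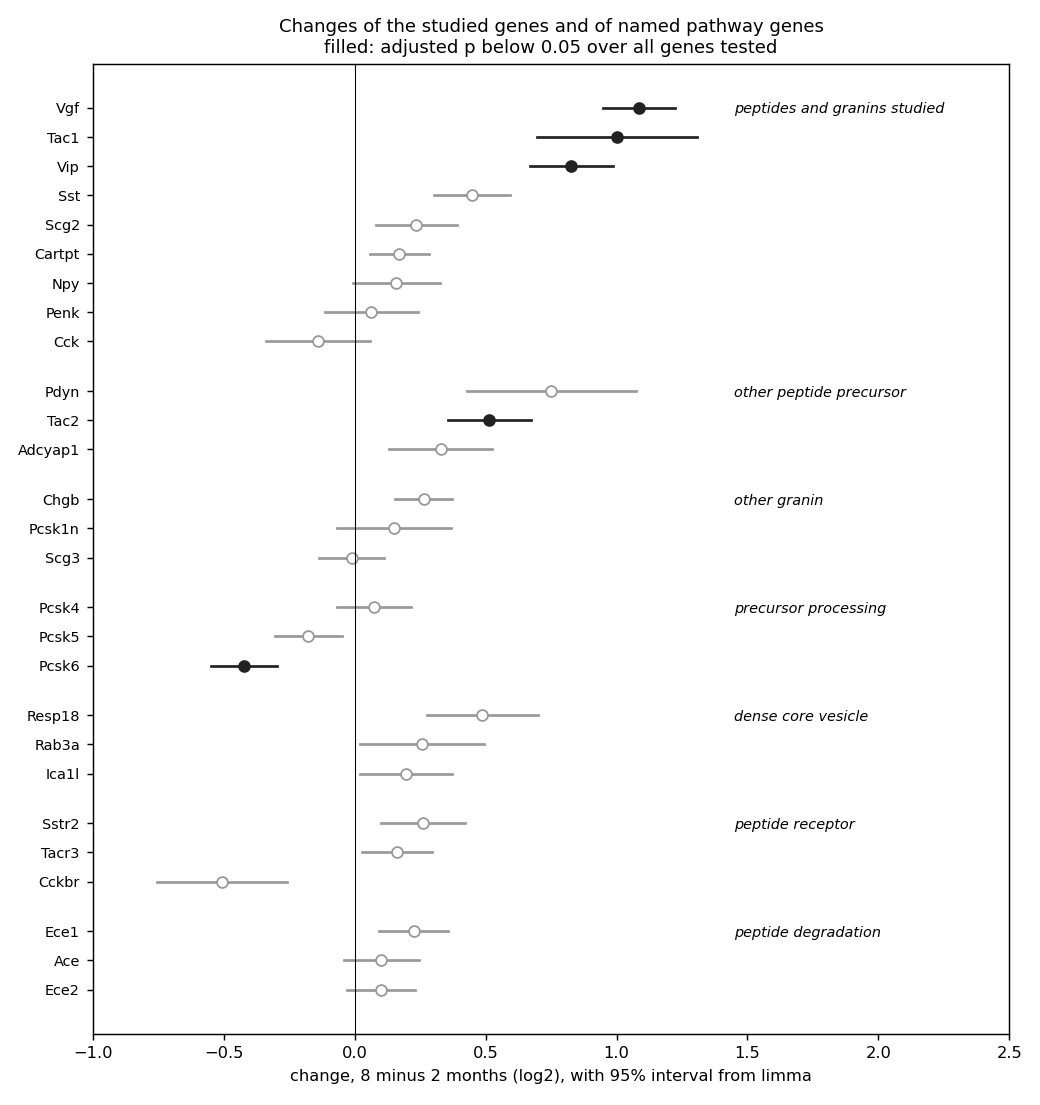
Change from 2 to 8 months on the log2 scale, with the 95% interval from limma, for the 9 tested members and for the genes named from each list. Filled points were called at an adjusted p below 0.05 over 12046 genes: Vgf, Tac1, Vip and Tac2 above 0 and Pcsk6 below it.

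**Figure D4:**
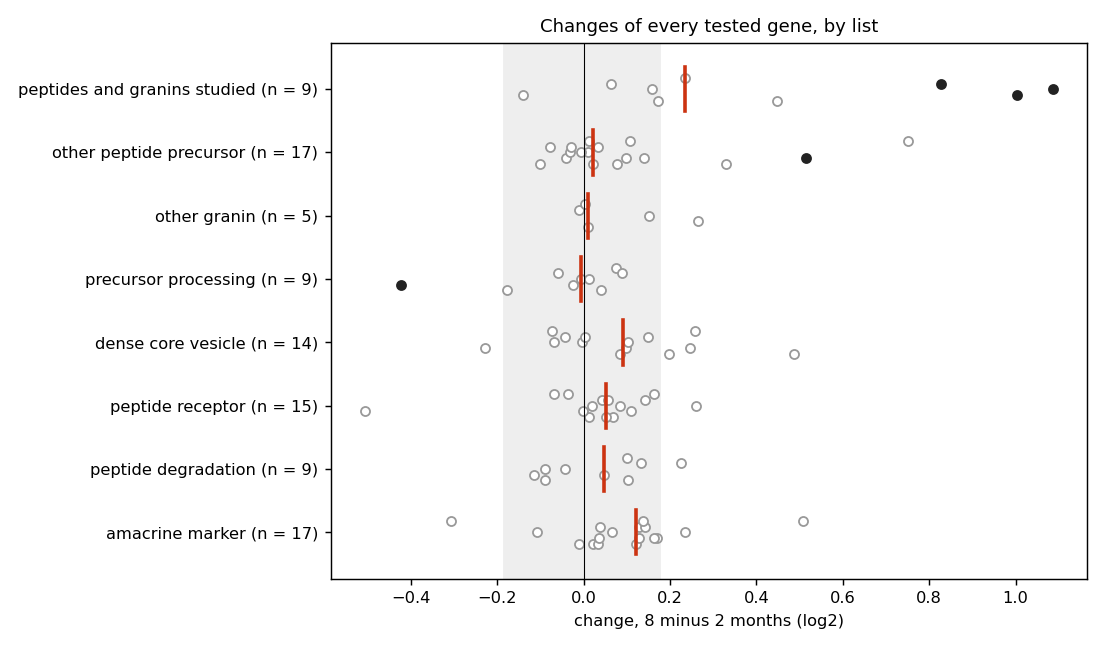
Change of every tested gene on the log2 scale, 1 point per gene, by list, with the list median as a red bar, called genes filled and the band from the 5th to the 95th percentile of all 12046 tested genes, −0.18 to 0.18, in grey. The band is the spread of single genes and is no measure for a list median. The medians are 0.24 for the studied peptides and granins, which were picked on these changes, −0.0064 to 0.09 for the lists of other precursors, granins, processing, vesicles, receptors and peptidases, and 0.12 for the amacrine markers.

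The amacrine cells that make most of these peptides were checked through 20 marker genes, of which 17 were tested. Their mean level was 10.24 to 10.29 at 2 months and 10.33 to 10.39 at 8 months, with 14 changes positive, 3 negative and a median of 0.12, and 0 were called. The mean of the list was thus slightly higher in every 8 month sample. Without overlap between the ages 3 markers were higher and 2 lower, beside 7.45% and 7.59% of all genes tested. The higher ones were Gad2, Tfap2a (0.14, limma adjusted p = 0.490) and Slc32a1 (0.13, limma adjusted p = 0.389). The lower ones were Slc17a8, a glutamate transporter of some amacrine cells (−0.31, limma adjusted p = 0.140), and Slc6a9, the glycine transporter (−0.11, limma adjusted p = 0.647). These markers are named after their values were seen. The largest change among the tested markers was the 0.51 of Gad2, a GABA-making enzyme (limma adjusted p = 0.135). Vip, Tac1 and Vgf were picked on their changes, so that their size is not set against that of the markers. In pooled tissue more cells of a type and more RNA per cell cannot be told apart. Ganglion cell markers (7 tested) had a median change of 0.11, with levels of 10.53 to 10.59 and 10.50 to 10.83, and bipolar cell markers (8 tested) one of −0.07, with levels of 11.47 to 11.51 and 11.39 to 11.44. Müller glia markers (9 tested) had a median of 0.01. The part of these markers in the changes of the peptides was not tested.

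**Figure D5:**
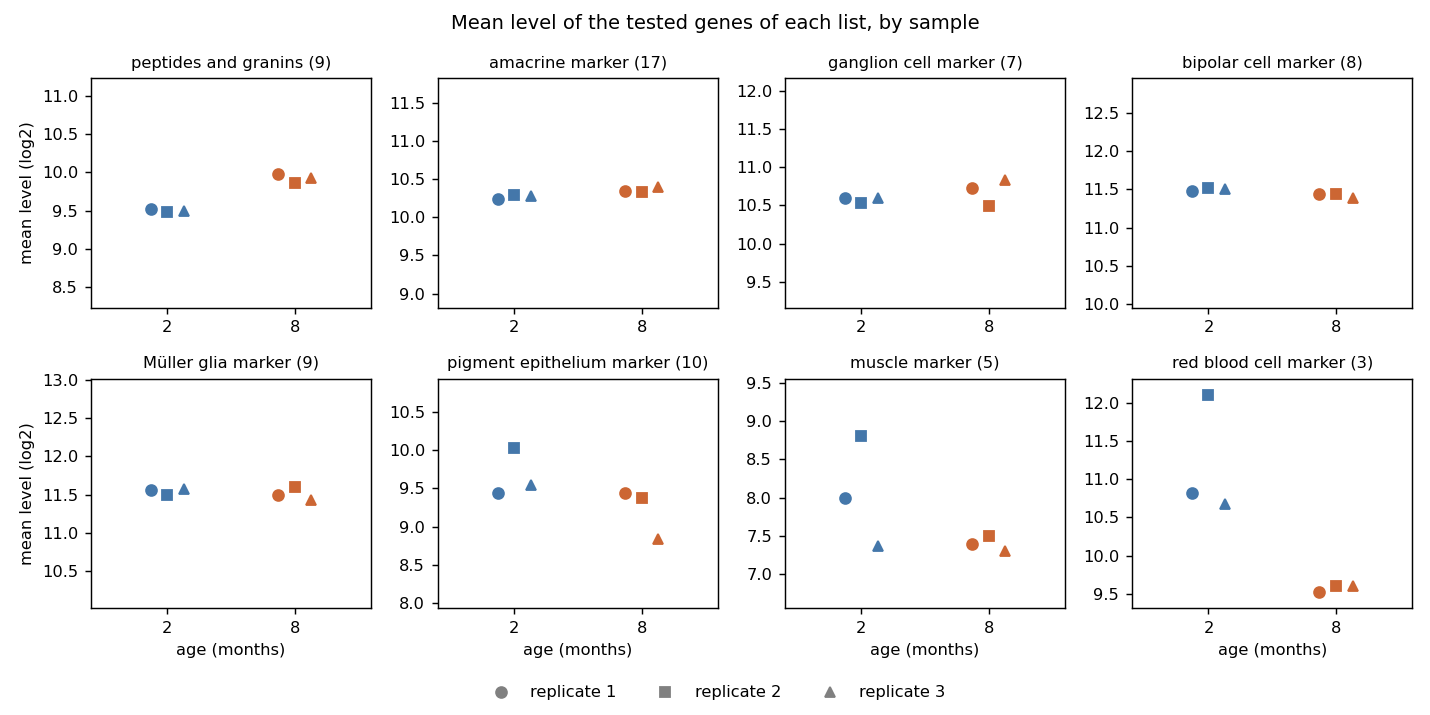
Mean level on the log2 scale of the tested genes of each list (their number in brackets), by age in months, with 1 point per sample and a symbol for each replicate number, every panel spanning the same number of log2 units. The studied peptides and granins, which were picked on their changes, are at 9.48 to 9.53 at 2 months and 9.86 to 9.98 at 8 months. The amacrine markers are at 10.24 to 10.29 and 10.33 to 10.39. The haemoglobin genes are higher in all 2 month samples, at 10.7 to 12.1 against 9.53 to 9.61.

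Blood and pigment epithelium differed between the ages as well, and the changes of the called members were refitted beside them. With the haemoglobin level as a covariate they were 1.14 for Vgf (SE 0.127), 1.02 for Tac1 (SE 0.281) and 0.88 for Vip (SE 0.146). Without it they were 1.09, 1.00 and 0.83. The haemoglobin level did not overlap between the ages, at 10.7 to 12.1 against 9.53 to 9.61. This fit therefore cannot tell blood content from age. The standard errors were about doubled and none of the 12046 genes was called by limma, with 461 higher and 378 lower at an unadjusted p below 0.05. The adjusted p was 0.187, 0.556 and 0.287 for the 3 genes. Other named genes moved by over 1.5 times with this covariate. Scg2 at 0.12, Npy at −0.0091, Pdyn at 0.40, Adcyap1 at 0.21, Resp18 at 0.18, Rab3a at 0.05, Ece1 at 0.06 and Cckbr at −0.28 lost size or, for Npy, turned in sign. Cck moved to −0.41, Penk to 0.20, Pcsk1n to 0.36, Pcsk4 to 0.25, Tacr3 to 0.25, Ece2 to 0.16 and Scg3 to −0.06, all larger than without it, and none was called. With the pigment epithelium level as a covariate Vgf remained called, at 1.17, and Tac1 and Vip, at 1.04 and 0.77, were not (limma adjusted p = 0.404 and 0.145). When 2 month replicate 3, without the Y-linked signal, was set alone against the 8 month samples, an alternative added after seeing the data in which the lone sample is assumed to vary like the others, the changes were 1.07, 1.09 and 0.82. Of the 3, Vgf was called there (limma adjusted p = 0.0450).

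Genes that followed the called members most closely over the 6 samples were sought among 851 other tested genes whose values ranged over at least 0.5 units. Their correlations describe 6 samples that share the step between the ages, and have no p. Closest to Vip were Nrgn, a calmodulin-binding protein of neurons (r = 0.996, change 0.76), Egr3, an activity-regulated transcription factor (r = 0.995, change 2.64), and Tmem91 (r = 0.993). Tac1 was followed by Tac2 (r = 0.984), Susd6 (r = 0.984) and Ngef (r = 0.976). Closest to Vgf were Scx, a transcription factor known from tendon (r = 0.985), Nrgn (r = 0.979) and Lcn2, a lipocalin of reactive glia (r = 0.976). Like Tac1, Tac2 was highest in 8 month replicate 1 and lowest, among the older samples, in replicate 2, at 8.52 and 8.35. Tac2 was picked here by its correlation with Tac1, so that the shared order is no separate result. Of the other tested members, Scg2 and Npy had the same order among the older samples, and Vip, Vgf, Sst, Cartpt, Cck and Penk did not.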

How the data were processed

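Total RNA of 6 central retina samples was column-extracted with DNase, labelled as biotinylated cRNA and hybridised to Illumina arrays, per the labels' protocols. The deposited table holds 1 log2 value per probe and sample from the authors, 6.98 to 14.5, the scale being read from the range. Sorted, the 6 columns differ by at most 0.00307, so their distributions had been made equal before deposit. The software was not given in the sources used here, nor the background correction, and a transform that compresses dim values cannot be told from a plain log2. The number of arrays limits the precision.

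Groups and replicate numbers came from the titles. The descriptions number the 2 month samples differently. Probes were named through the GEO annotation (34885 with 1 gene symbol, 18 with several, 10378 with none), and gene numbers checked against RefSeq records of GRCm38.p6 changed 0 symbols. Probes were kept where 3 or more arrays had them above that array's 50th percentile (22458 probes), and a gene was read at its kept probe with the highest mean. The fit used lmFit and eBayes of limma 3.58.1, run in R 4.3.3, with no covariate or block, and p-values were adjusted by Benjamini-Hochberg over 12046 genes, after the code was tested on simulated data. All 45281 probes were also fitted without a filter. The members, gene lists and tests were chosen with earlier results of these data known. Named are all members, from each pathway list every called gene and otherwise the 3 with the smallest p, and the 3 genes most correlated with Vip, Tac1 and Vgf, leaving out clone names. Alternatives were other normalizations, filters, probe choices and priors, the replicate number as a block, tissue covariates and leaving out each sample.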

Additional observations from a re-analysis of the deposited data

How the results depend on the processing

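Applying quantile normalization again, centring on the median or cyclic loess changed no call among Vip, Tac1 and Vgf, and all of their changes stayed positive under every alternative. Genes called higher and lower, 19 and 8 with all samples, numbered 5 and 2 without a filter on dim probes, 38 and 35 with a filter at the 75th percentile, 9 and 3 with the most variable probe, 9 and 4 with the probe as the unit, 52 and 52 with the robust prior, 0 and 0 with haemoglobin and 3 and 1 with pigment epithelium as covariate. Leaving out 1 sample gave 2 to 12 higher (2 without 2 month replicate 1) and 0 to 19 lower (0 without 2 month replicate 1, where 593 had an unadjusted p below 0.05 by limma, and 19 without 2 month replicate 3). With 2 month replicate 3 alone against the older samples there were 5 and 2. Member genes called higher, 3 with all samples, were 0 with haemoglobin, 1 with pigment epithelium, 1 with 2 month replicate 3 alone and 1 to 3 when leaving out a sample (1 without 2 month replicate 1 or 8 month replicate 1). Members called lower were 0 throughout. Member probes called in the fit of all probes, 2 with all samples, were 4 with the robust prior, 0 with haemoglobin, 1 with pigment epithelium, 0 to 2 when leaving out a sample (0 without 2 month replicate 1 or 3) and 0 with 2 month replicate 3 alone. The change of Tac1 was 1.00 but not called without a filter, with the mean of the kept probes, with the most variable probe or with the probe as the unit (limma adjusted p = 0.103, 0.0532, 0.0548 and 0.0601). It was 1.02 with haemoglobin, 1.04 with pigment epithelium and 1.09 with 2 month replicate 3 alone, and 0.86 to 1.13 when leaving out a sample. Vip was not called at 0.88, 0.77 and 0.82 under the same 3 settings and ranged from 0.76 to 0.88, and Vgf was not called at 1.14 with haemoglobin and ranged from 1.05 to 1.13. List medians, most near 0, moved too, for instance that of other precursors to 0.51 with the filter at the 75th percentile, which left 3 of them. Signs turned for uncalled genes near 0: Npy was at −0.0091 with haemoglobin, Ece2 at −0.0028 with mean probes and −0.069 with the most variable probe, Pcsk4 at −0.048 with the latter, and Scg3 at 0.000477 with pigment epithelium, −0.049 to 0.0084 over the fits that each left out a sample (above 0 in 3 of 6, at 0.0073 without replicate 1 at 2 months and 0.0076 and 0.0084 without the replicates numbered 2 and 3 at 8 months), and 0.0020 with 2 month replicate 3 alone. The cause of these shifts was not tested.

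With the replicate block, 14 genes were higher and 18 lower, 3 members were called higher and 1 member probe was called over all probes. Tac2 and Pcsk6 lost their calls under the block (limma adjusted p = 0.0761 and 0.0855). The numbers did not meet the rule for pairing: deviations of same-numbered samples correlated at 0.0239, 0.139 and 0.16, although each 2 month sample correlated best with its own number. Signal close to background limits Sst, Penk, Tac2 and most receptors.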
